A study of Drosophila melanogaster with 6 samples.

Results

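Of 16196 Drosophila melanogaster genes, 1459 (9.01%) differed by at least 2-fold between larvae misexpressing the newt gene C3 and both of the libraries C1 and C5. Among the 9920 genes measured, with a mean of at least 1 count per 1000000 scaled counts (CPM) over these 3 libraries, 893 (9.00%) differed in this way, 227 (2.29%) higher and 666 (6.71%) lower in C3. The higher genes were led by late salivary gland genes of the Eig71E cluster and by genes with no assigned name beyond a CG number. The lower genes took in all 8 measured salivary glue genes, all 6 measured larval cuticle genes, 21 of 33 muscle genes and 20 of 42 midgut digestive enzymes. C1 and C5 were set beside C3 because they resembled each other in these data, and the genes were chosen by their size in the same libraries, so every C3 ratio is a description with no test.

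Each library held total RNA of whole larvae of the 3rd instar, the last larval stage, taken on day 4 after egg laying. The genotypes were Tubulin-Gal4 with UAS-C1, UAS-C3 or UAS-C5, where Tubulin-Gal4 is a driver active in nearly all cells and each UAS transgene carries 1 gene of the newt Notophthalmus viridescens, inserted at an attP site with phiC31 integrase. The study also has a control, Tubulin-Gal4/S-T, which carries the driver without a newt gene, and libraries of UAS-C2 and UAS-C4 larvae with the same driver. Each genotype was a single strain with 1 library, the number of larvae in a library is not given, and the newt RNAs were not analysed here, so the labels could not be checked on the transgene. Differences are between libraries, have no replicate check, and intervals in the text are exact 95% intervals for counting error only.

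The libraries were of like depth, with 86975388 counts in C1, 76151038 in C3 and 83019971 in C5. All 3 had 0 counts over 45 Y-linked genes, against 1895 in the control and 3808 in C4. The testis tubulin gene betaTub85D was at 0.922 CPM in C3, against 0.868 in C1, 0.667 in C5, 244 in the control, 0.449 in C2 and 535 in C4. The summed level of 29 testis genes was 179 CPM in C1, 168 in C3 and 176 in C5, against 3245 in the control and 6590.4 in C4. Most of the sum in C1, C3 and C5 came from the gene Pen. It was at 154 CPM in C1, 148 in C3 and 156 in C5, against 388 in the control and 634 in C4. The dosage compensation RNA roX1, made in males, was at 14.4 CPM in C3, 11.9 in C1 and 13.2 in C5, against 208 in the control. The measured genes as a whole were centred, with a median log2 ratio of 0.01 to C1 and 0.00 to C5. The scaling of the library totals aims at this, so it is no sign that the libraries agree. With plain CPM, from unscaled totals, the medians were 0.08 and 0.14. The comparators differed between themselves by at least 2-fold for 382 measured genes (3.85%), 257 higher and 125 lower in C1.

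In the last larval stage of the fly, pulses of the steroid hormone ecdysone bind a receptor made of EcR and Ultraspiracle and switch on transcription factors such as Broad, Eip74EF and Eip75B, which in turn set the times of other genes. The salivary glands respond in sequence. They first make glue proteins, encoded by the Sgs genes, which the larva expels to fix itself to a surface when it forms a puparium, and later, when the glue genes are shut off, they express late genes such as those of the Eig71E cluster. In a whole larva fewer cells of a type and less RNA per cell cannot be told apart, and this holds for every tissue named here.

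**Figure D1:**
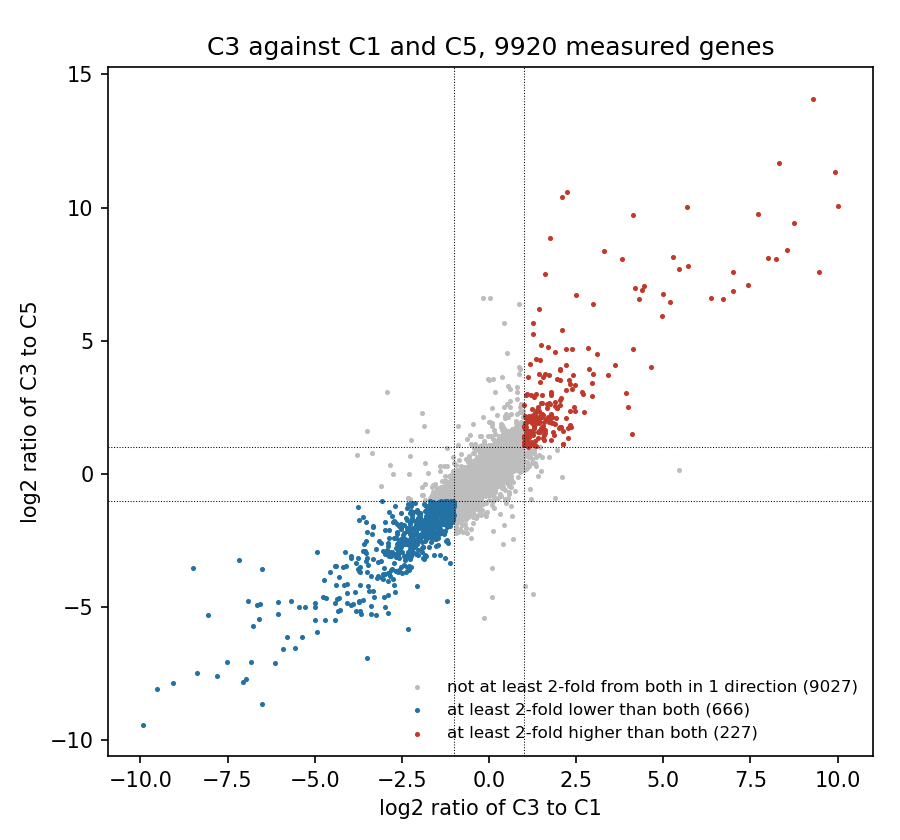
Log2 ratio of C3 to C1 (horizontal) against log2 ratio of C3 to C5 (vertical) for the 9920 measured genes, 1 point per gene, with dotted lines at 2-fold. The 227 red genes and the 666 blue genes are those at least 2-fold from both; the axes share the C3 library, so the diagonal spread is not a result.

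The Eig71E cluster on chromosome arm 3L encodes small secreted peptides of the late salivary gland. Of the 11 genes listed 9 were measured, and 8 of them were higher and 1 was lower in C3 than in both C1 and C5, with a median log2 ratio of 7.01 to C1 and 6.87 to C5 when the genes at 0 counts are set at their lower bounds. Eig71Eb, Eig71Ec, Eig71Ed, Eig71Ef, Eig71Eh and Eig71Ei were below 1 CPM in both C1 and C5. They were measured through their C3 level alone and could only be called higher. Eig71Ec (3L, 15651479 to 15652254) was at 100.1 CPM in C3, compared with 0.0964 in C1 and 0.0933 in C5, and with 0.0977 in the control, 0.150 in C2 and 351 in C4. It was high in C3 and C4 and close to the level of a few counts in the other libraries, and the C3 level was 1039-fold that of C1 (log2 interval 9.04 to 11.23) and 1073-fold that of C5 (9.02 to 11.38). Eig71Eb (3L, 15649936 to 15650541) was at 105 CPM in C3, against 0.108 in C1, 0.0400 in C5, 0.239 in the control, 0.0898 in C2 and 133 in C4, with 3 counts in C5. The log2 ratio of C3 to C5 was 11.35, with a wide interval of 9.81 to 13.63. Eig71Ed was at 74.1 CPM in C3, compared with 0.289 in C1 and 0.267 in C5, and with 0.0760 in the control, 0.599 in C2 and 284 in C4, a log2 ratio of 8.0 to C1 and 8.12 to C5.

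The first gene of the cluster, Eig71Ea (3L, 15649126 to 15649661), was already detectable outside C3 and C4, at 336 CPM in C3, against 4.06 in C1, 3.43 in C5, 1.64 in the control, 2.78 in C2 and 391 in C4. Its log2 ratio was 6.37 to C1 and 6.62 to C5. Eig71Ef was at 36.7 CPM in C3, compared with 0.0844 in C1 and 0.0533 in C5, and with 0.0217 in the control, 0.0299 in C2 and 178 in C4. Eig71Eg was at 39.4 CPM in C3, against 1.58 in C1, 2.44 in C5, 0.597 in the control, 0.748 in C2 and 115 in C4. Both again separated C3 and C4 from the other 4 libraries without overlap. Eig71Eh and Eig71Ei had 0 counts in C1, C5, C2 and the control, and 288 and 355 counts in C3. Against a floor of 3 counts per library, Eig71Eh was at least 105-fold higher in C3 than in C1 and at least 94.8-fold higher than in C5, and Eig71Ei at least 129-fold and 117-fold. In C4 these genes stood at 19.2 and 8.99 CPM.

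Eig71Ee, which lies in the middle of the cluster (3L, 15654472 to 15656010), went the other way. It encodes a peritrophin-like protein also known from haemolymph clots, and it was at 88.6 CPM in C3, compared with 2312 in C1 and 3999 in C5, and with 5473 in the control, 2787 in C2 and 1595 in C4. C3 was the lowest of the 6 libraries, 26.1-fold below C1 and 45.1-fold below C5. Its neighbours on either side, Eig71Ed and Eig71Ef, were higher in C3.

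The glue genes were the lowest group in C3. All 8 measured members of the 10 listed were at least 2-fold below both comparators, with a median log2 ratio of -6.05 to C1 and -7.17 to C5. Sgs3 (3L, 11512221 to 11513402) was at 125 CPM in C3, against 5958 in C1, 11665 in C5, 5560.1 in the control, 11776 in C2 and 5157 in C4. C3 stood below all 5 other libraries, and the same was so for Sgs4, at 11.7 CPM in C3 and between 1114 and 3735 CPM in the others. Sgs4 had a log2 ratio of -7.05 to C1 (-7.15 to -6.96) and -7.81 to C5 (-7.91 to -7.71).

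Sgs5bis (3R, 17594386 to 17595057), a gene next to Sgs5, was at 2.15 CPM in C3, compared with 1572 in C1 and 584 in C5, and with 323 in the control, 857 in C2 and 293 in C4. It was 732-fold lower in C3 than in C1 and 272-fold lower than in C5. Its neighbour Sgs5 was at 176 CPM in C3, against 2719.9 in C1, 5353 in C5, 3339 in the control, 8406 in C2 and 3351 in C4, a smaller gap, with log2 ratios of -3.95 and -4.93. Within the glue genes the gap to C1 ran from log2 -3.95 for Sgs5 to -9.52 for Sgs5bis. Sgs7 was at 378 CPM in C3, compared with 7549 in C1 and 13464 in C5, and with 6297 in the control, 16013 in C2 and 7227 in C4. Sgs8 was at 106 CPM in C3, against 2264 in C1, 3042 in C5, 1833 in the control, 5156 in C2 and 2120.4 in C4. Sgs1 was at 2.30 CPM in C3, compared with 212 in C1 and 925 in C5, and with 295 in the control, 751 in C2 and 247 in C4, and it was 1 of 3 glue genes that also differed by at least 2-fold between C1 and C5. The gland gene ng3 had 4 counts in C3, and it was at 0.0527 CPM in C3, against 28.03 in C1, 12.02 in C5, 2.41 in the control, 177 in C2 and 11.6 in C4, so its log2 ratio to C1 of -9.06 had an interval of -10.93 to -7.70.

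Together the 10 listed glue genes took 0.0801% of the counts in C3 (0.0795% to 0.0808%), against 2.09% in C1, 3.41% in C5, 2.08% in the control, 4.17% in C2 and 2.325% in C4. Sgs4 and ng3 lie within the large gene dnc, whose reads the counting could have shared. Of 6 measured genes among the gland's own regulators and enzymes 2 were lower in C3, the transcription factor gene sage at 20.7 CPM in C3, 56.2 in C1 and 73.5 in C5 and PH4alphaSG2, a prolyl hydroxylase gene of the gland, at 0.118 CPM in C3, 2.11 in C1 and 2.15 in C5. Its paralog PH4alphaSG1 was too low to count as measured, with 0 counts in C3, 171 in C1 and 64 in C5. The gland regulator fkh was at 60.9 CPM in C3, 65.7 in C1 and 59.000 in C5, within 2-fold of both. CrebA, a regulator of secretory genes, was at 164 CPM in C3, 92.5 in C1 and 73.3 in C5, at least 2-fold above C5 but not C1. None of 32 measured genes of the secretory pathway and ER chaperones was 2-fold from both, with medians of 0.02 and 0.03.

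**Figure D2:**
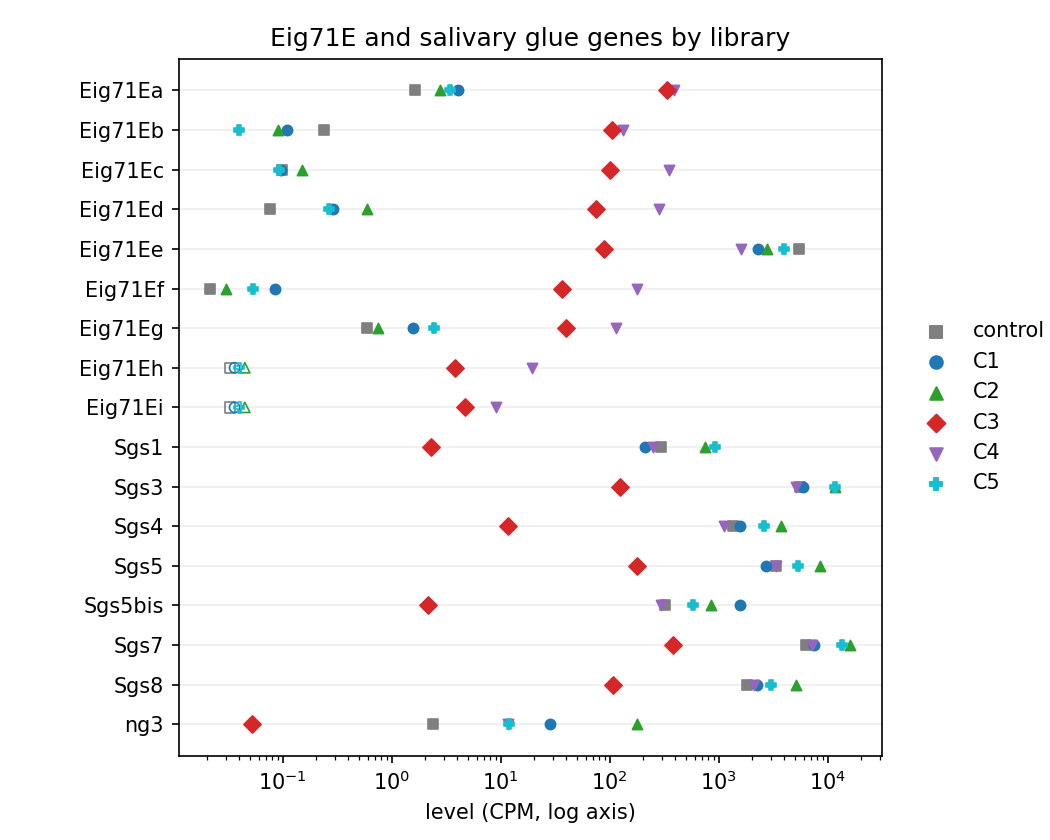
Level in CPM (log axis) of the 9 measured Eig71E genes and the 8 measured glue genes in each of the 6 libraries; open symbols mark 0 counts, drawn at the floor of 3 counts. For 8 of the 9 Eig71E genes, all but Eig71Ee, C3 and C4 are the 2 highest libraries, and C3 is the lowest library for each of the 8 glue genes, for example 11.7 CPM for Sgs4 against 1114 CPM in C4.

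Several genes with no assigned name were likewise high in C3 and C4. CG32762 and CG4151 are neighbours on the X chromosome (5500208 to 5501229 and 5501476 to 5502782). CG32762 was at 932 CPM in C3, compared with 1.47 in C1 and 0.0533 in C5, and with 0.206 in the control, 0.0599 in C2 and 439 in C4, 634-fold higher in C3 than in C1, with 4 counts in C5. CG4151 was at 1273 CPM in C3, against 4.01 in C1, 0.387 in C5, 0.402 in the control, 1.38 in C2 and 476 in C4, with log2 ratios of 8.31 and 11.69. Both were high in C3 and C4 and low in the other 4 libraries. CG42717 (3L, 16032762 to 16033190) was at 643 CPM in C3, compared with 2.12 in C1 and 2.37 in C5, and with 0 in the control, 1.09 in C2 and 138 in C4. CG45081 (3L, 19266061 to 19266838), which overlaps Mettl5, Aldh7A1 and CG42374, was at 419 CPM in C3, against 1.99 in C1, 0.480 in C5, 0.489 in the control, 0.404 in C2 and 388 in C4. CG43082, the gene after Eig71Ei, was at 18.2 CPM in C3, compared with 0.0482 in C1 and 0.0533 in C5, and with 0.0434 in the control, 0.150 in C2 and 4.07 in C4. It was higher in C3 than in C4, unlike Eig71Ei beside it. The methuselah-like receptor gene mthl8 had 0 counts in C1 and 1952 in C3, at least 711-fold higher, and it stood at 9.40 CPM in C2 as well. Of the 12 higher genes with the largest ratios at a mean of 5 CPM or more, 5 were Eig71E genes, and the antimicrobial peptide gene CecB was the only other one outside these unnamed genes and mthl8. CG43082, mthl8 and CecB were below 1 CPM in both C1 and C5. These genes were measured through their C3 level alone and could only be called higher.

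The lower genes with the largest ratios, other than the glue genes, were also mostly unnamed. CG13947 (2L, 779173 to 779655) was at 0.0395 CPM in C3, against 38.5 in C1, 26.9 in C5, 5.10 in the control, 23.9 in C2 and 21.9 in C4, with 3 counts in C3, and its log2 ratio was -9.93 to C1 (-12.21 to -8.38) and -9.41 to C5 (-11.69 to -7.86). Its neighbour CG13946 was 1 of 2 measured lower genes with 0 counts in C3, against 361 counts in C1 and 153 in C5. CG13560 was the other, with 218 and 83 counts. CG31698 and CG15404, adjacent on arm 2L (3173205 to 3174504), were at 2.99 CPM in C3, 374 in C1 and 617 in C5 and at 5.53 CPM in C3, 334 in C1 and 531 in C5. In the control, C2 and C4 the lowest values were 157 and 218 CPM, far above C3. CG13460 was at 0.355 CPM in C3, 80.1 in C1 and 68.1 in C5 and CG14265, which lies near ng3 within dnc, at 0.250 CPM in C3, 45.5 in C1 and 33.7 in C5. CG17134 was at 0.0658 CPM in C3, 21.8 in C1 and 11.8 in C5 and CG8299 at 0.184 CPM in C3, 13.01 in C1 and 25.4 in C5. C3 was below 1 CPM for CG13460, CG14265, CG17134 and CG8299, and above it for CG31698 and CG15404. Listericin, an antibacterial peptide gene, was at 0.0658 CPM in C3, compared with 7.50 in C1 and 8.82 in C5, and with 23.2 in the control, 25.6 in C2 and 7.28 in C4, so C3 with 5 counts was the lowest of the 6.

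Most differences were smaller. Taking for each gene the nearer comparator, 159 of the 227 higher genes were between 2-fold and 4-fold, 33 between 4-fold and 8-fold, 15 between 8-fold and 32-fold and 20 beyond 32-fold. For the 666 lower genes these numbers were 418, 153, 75 and 20. The higher genes had a median level of 6.90 CPM in C1, 36.4 CPM in C3 and 3.64 CPM in C5, and the lower genes 15.8, 3.38 and 16.6 CPM. The higher genes held 4.28% of the counts in C3, 1.18% in C1 and 0.474% in C5. The lower genes held 2.43% in C3, 9.24% in C1 and 11.7% in C5. In every one of the 893 measured members both counting intervals excluded a ratio of 1. This follows largely from the choice of genes by a 2-fold gap and by the filter on level. A further 265 higher and 301 lower members were not measured, with median levels of 0.143 and 0.250 CPM over the 3 libraries, and both intervals excluded 1 in 187 and 214 of them.

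The ecdysone receptor gene EcR (2R, 6087873 to 6169087) was at 22.6 CPM in C3, against 111 in C1, 129 in C5, 99.6 in the control, 204 in C2 and 97.6 in C4. C3 was the lowest library, and its log2 ratio was -2.29 to C1 (-2.37 to -2.22) and -2.51 to C5 (-2.59 to -2.44). The other receptor subunit, usp, was at 81.1 CPM in C3, 73.6 in C1 and 71.6 in C5 and thus within 2-fold of both. Eip75B, an early-response nuclear receptor gene, was at 128 CPM in C3, compared with 398 in C1 and 581 in C5, and with 404 in the control, 311 in C2 and 291 in C4, again lowest in C3, with log2 ratios of -1.63 and -2.18. Hr38, a nuclear receptor gene that also pairs with Ultraspiracle, was the single higher gene of the list, at 2.70 CPM in C3, against 0.615 in C1, 0.893 in C5, 0.597 in the control, 4.80 in C2 and 0.831 in C4, and C2 exceeded C3. With C1 and C5 below 1 CPM, Hr38 was measured through its C3 level and could only be called higher.

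The other 13 of the 16 receptor and response factor genes were not 2-fold from both, so the list held 1 higher and 2 lower genes with medians of -0.13 and 0.08. Over all measured genes 2.29% were higher and 6.71% lower. Broad (br), the early factor that marks the onset of metamorphosis, was at 1366 CPM in C3, 2106 in C1 and 2562 in C5. Eip74EF was at 401 CPM in C3, 594 in C1 and 586 in C5, also lower in C3 but by less than 2-fold. Hr3, a delayed early factor, was at 249.9 CPM in C3, 149.6 in C1 and 84.7 in C5, and Eip78C at 620.3 CPM in C3, 522 in C1 and 259 in C5; both were at least 2-fold above C5 and within 2-fold of C1. Eip93F, a factor tied to the death of larval tissues, was at 79.9 CPM in C3, 58.95 in C1 and 13.9 in C5, with the same order. Hr4 was at 333 CPM in C3, 463 in C1 and 452 in C5, Hr39 at 141 CPM in C3, 155 in C1 and 129.5 in C5, and Hr78 at 196 CPM in C3, 178 in C1 and 171 in C5. The prepupal factor ftz-f1 was low in all 3 libraries, at 2.40 CPM in C3, 2.72 in C1 and 3.28 in C5, and Blimp-1 was at 39.5 CPM in C3, 49.9 in C1 and 44.02 in C5. Sox14 was at 716 CPM in C3, 783 in C1 and 694 in C5, and crol at 336 CPM in C3, 274 in C1 and 256 in C5. None of these last genes was 2-fold from either comparator.

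Of 11 other measured genes known as ecdysone-induced, ImpL1 was higher in C3, at 5.44 CPM in C3, compared with 1.01 in C1 and 0.413 in C5, and with 0.890 in the control, 0.554 in C2 and 12.2 in C4, and none was lower. Among 16 genes of ecdysteroid synthesis, import and breakdown 2 were lower, where 6.71% of all measured genes were. The gene shd encodes the enzyme that turns ecdysone into its active form, and it was at 7.52 CPM in C3, against 44.01 in C1, 57.96 in C5, 66.8 in the control, 71.6 in C2 and 27.6 in C4. C3 was lowest, 5.85-fold below C1 and 7.71-fold below C5. Cyp18a1 encodes an enzyme that inactivates ecdysteroids, and it was at 2.12 CPM in C3, compared with 17.02 in C1 and 51.9 in C5, and with 13.2 in the control, 10.4 in C2 and 5.02 in C4. C5 was the highest library and C3 the lowest, so the log2 ratio was -3.0 to C1 and -4.61 to C5. The prothoracic gland enzymes were closer. Values were 43.1 CPM in C3, 52.5 in C1 and 62.5 in C5 for phtm, 47.9 CPM in C3, 49.7 in C1 and 51.04 in C5 for sad and 15.2 CPM in C3, 23.4 in C1 and 15.7 in C5 for spok, all within 2-fold of both. The ecdysone importer gene Oatp74D was at 148 CPM in C3, 127 in C1 and 105 in C5.

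**Figure D3:**
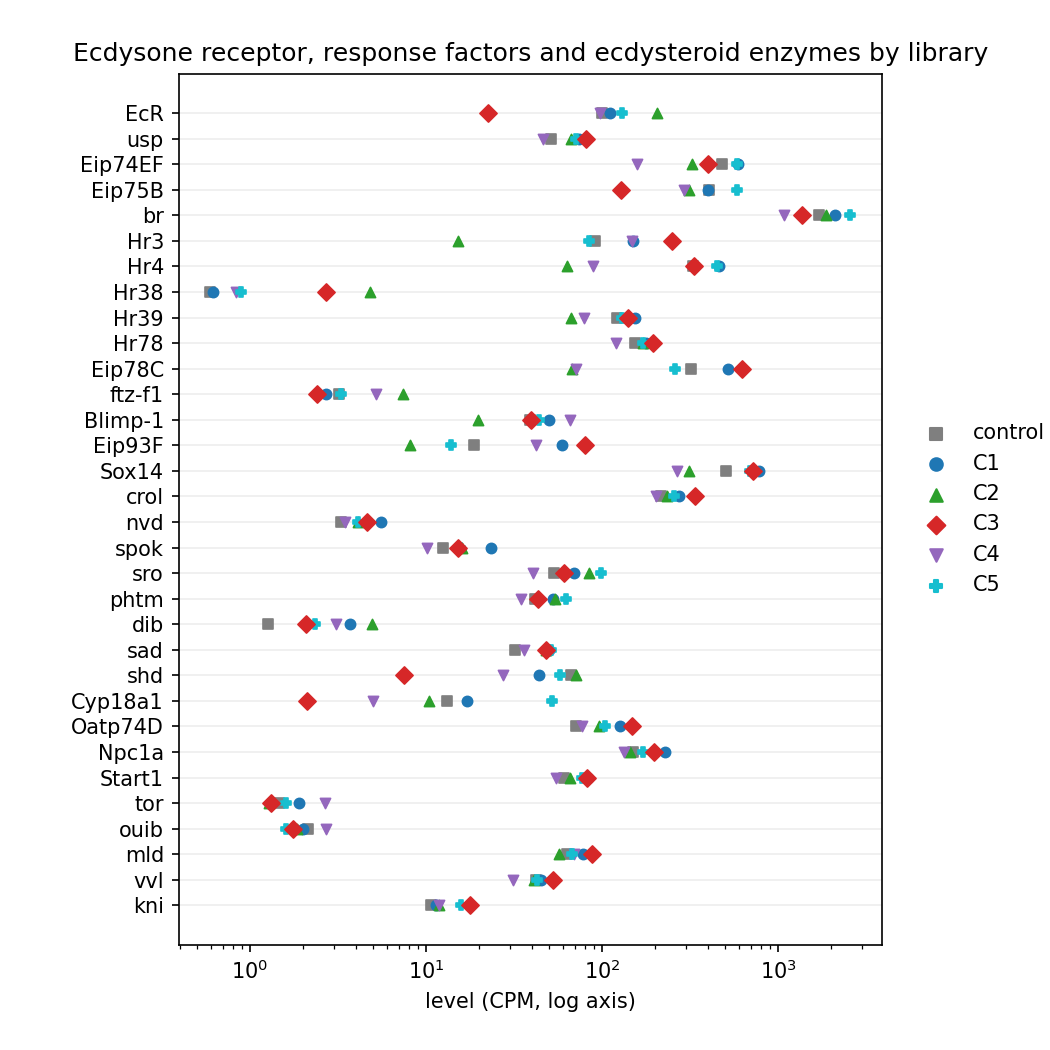
Level in CPM (log axis) of 16 ecdysone receptor and response factor genes (EcR to crol) and 16 ecdysteroid synthesis, import and breakdown genes (nvd to kni) in each library. C3 is lowest of the 6 libraries for EcR (22.6 CPM), Eip75B (128 CPM), shd (7.52 CPM) and Cyp18a1 (2.12 CPM), among others.

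Larval cuticle genes, which encode structural proteins of the larval skin, were all lower in C3, in 6 of 6 measured of 15 listed, with medians of -3.56 to C1 and -5.07 to C5. All 6 also differed by at least 2-fold between C1 and C5. Lcp1 was at 184 CPM in C3, against 2375 in C1, 6495 in C5, 4888 in the control, 17176 in C2 and 4902 in C4. Lcp3 was at 5.41 CPM in C3, compared with 60.8 in C1 and 654 in C5, and with 403 in the control, 2219.8 in C2 and 287 in C4. C3 was the lowest library for both and C2 the highest. Lcp1 and Lcp2 are close copies, so reads could have been shared between them. Lcp9 was at 0.737 CPM in C3, against 10.4 in C1, 26.2 in C5, 6.74 in the control, 184 in C2 and 15.2 in C4. Of 24 measured genes of the Cpr cuticle protein family, 3 were higher and 10 lower. For this list and those below, the shares over all measured genes were 2.29% higher and 6.71% lower. Cpr49Af was lower, at 0.276 CPM in C3, 2.63 in C1 and 10.9 in C5, as was Cpr57A at 4.88 CPM in C3, 49.2 in C1 and 103 in C5, whereas Cpr47Ee was higher, at 35.9 CPM in C3, 10.6 in C1 and 5.83 in C5. Of the 4 measured pupal cuticle genes Pcp, which lies within an intron of Gart, was lower at 140.3 CPM in C3, 341 in C1 and 666 in C5. TwdlT was higher and TwdlX lower among 3 measured Tweedle genes. Of 32 genes of chitin synthesis, binding and breakdown 1 was higher, the chitinase gene Cht4 at 8.41 CPM in C3, 3.07 in C1 and 0.773 in C5, and 5 were lower, among them obst-G at 0.0658 CPM in C3, 2.11 in C1 and 1.88 in C5, obst-F at 0.487 CPM in C3, 9.91 in C1 and 12.5 in C5 and obst-E at 1.47 CPM in C3, 9.39 in C1 and 18.6 in C5.

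The tanning genes harden and colour the cuticle through dopamine derivatives. Of 19 measured 3 were higher and 3 lower, against 2.29% higher and 6.71% lower of all measured genes. The gene e (ebony), which joins beta-alanine to dopamine, was at 3073 CPM in C3, compared with 1016 in C1 and 16.9 in C5, and with 486 in the control, 1.74 in C2 and 237 in C4. The comparators were far apart, with C1 far above C5, and C3 was higher than every other library; its log2 ratio was 1.60 to C1 and 7.50 to C5. The gene b (black), which makes beta-alanine, was at 1371 CPM in C3, against 353 in C1, 117 in C5, 198 in the control, 51.7 in C2 and 192 in C4. The gene speck, which acetylates dopamine, was at 193 CPM in C3, compared with 18.1 in C1 and 14.8 in C5, and with 11.8 in the control, 22.1 in C2 and 475 in C4, with C4 above C3. The lower genes were yellow-e at 31.2 CPM in C3, 101 in C1 and 114 in C5, yellow-d2 at 24.4 CPM in C3, 60.3 in C1 and 111 in C5 and yellow-b at 20.6 CPM in C3, 47.1 in C1 and 46.5 in C5.

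The pattern of e, with C5 far below C1 and C1 below C3, recurred among the higher genes. Of the 227, 150 had C1 and C5 within 2-fold of each other, 70 had C1 at least 2-fold above C5 and 5 had C5 above C1; the remaining 2, Eig71Eh and Eig71Ei, were at 0 in both. In 18 genes C1 was at least 8-fold above C5, and in none of the 227 was C5 at least 8-fold above C1. Among the 18, CG7924, CG34244 and CG7906 lie side by side on 3L (14233469 to 14238272). CG34244 was at 1615 CPM in C3, against 378 in C1, 1.19 in C5, 181 in the control, 0.793 in C2 and 883 in C4. CG7924 was at 3437 CPM in C3, compared with 1029.7 in C1 and 7.48 in C5, and with 483 in the control, 1.68 in C2 and 2582 in C4. CG7906 was at 2543 CPM in C3, against 937 in C1, 34.9 in C5, 569 in the control, 6.11 in C2 and 1418 in C4. All 3 genes were lowest in C2 and C5 and highest in C3. CG2070 was at 284 CPM in C3, compared with 59.7 in C1 and 0.187 in C5, and with 67.4 in the control, 0.0748 in C2 and 48.9 in C4, so the ratio of C3 to C1 was log2 2.25 and that to C5 10.57. Setting C3 aside, C2 was the lowest of the other libraries in 14 of the 18 genes (77.8%) and C5 in 4. The values of C1 and C5 chose these 18 genes, so the ranks depend on that choice. Among the 666 lower genes 583 had C1 and C5 within 2-fold, 34 had C1 at least 2-fold above C5 and 49 had C5 above C1.

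Muscle genes were lower in C3. Of 33 measured members of 36 listed, 21 were at least 2-fold below both comparators and none was above, with medians of -1.30 to C1 and -1.65 to C5. Mhc, the muscle myosin heavy chain gene, was at 83.8 CPM in C3, against 386 in C1, 411 in C5, 496 in the control, 2641 in C2 and 284 in C4. C3 was the lowest library and C2 the highest, and C1, C5, C4 and the control lay between 284 and 496 CPM. The actin gene Act57B was at 367 CPM in C3, compared with 1913 in C1 and 2046 in C5, and with 1666 in the control, 6763 in C2 and 1355 in C4. The myosin light chain gene Mlc2 was at 169 CPM in C3, against 752 in C1, 1069 in C5, 815 in the control, 3946 in C2 and 714 in C4. The paramyosin gene Prm was at 152 CPM in C3, compared with 750.4 in C1 and 950.3 in C5, and with 623 in the control, 2083 in C2 and 680.1 in C4. Each had the same extremes, C3 lowest and C2 highest. The troponin C gene TpnC47D was at 0.382 CPM in C3, against 2.75 in C1, 5.37 in C5, 3.58 in the control, 54.7 in C2 and 4.80 in C4, the largest gap of the list. Argk1, the arginine kinase gene, was at 542 CPM in C3, 1193 in C1 and 1216 in C5, among the smallest gaps of the called genes. The summed level of the 36 genes was 7586 CPM in C3, compared with 16739 in C1 and 19662 in C5, and with 14242 in the control, 43712 in C2 and 13719.5 in C4.

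Genes of haemocytes, the blood cells, were called in 9 of 18 measured, all lower, with medians of -1.08 and -1.09. Hml, made by plasmatocytes, was at 5.23 CPM in C3, against 42.6 in C1, 70.6 in C5, 16.7 in the control, 92.3 in C2 and 28.3 in C4. The phagocytic receptor gene NimC1 was at 3.99 CPM in C3, compared with 18.9 in C1 and 16.8 in C5, and with 17.6 in the control, 11.6 in C2 and 6.02 in C4. C3 was lowest for both. PPO1 and PPO2, the prophenoloxidase genes of crystal cells, were at 7.91 CPM in C3, 45.2 in C1 and 42.8 in C5 and at 16.9 CPM in C3, 98.5 in C1 and 96.1 in C5. The control had 13.9 and 29.5 CPM of these, nearer to C3 than to C1 or C5. The lamellocyte gene atilla was at 0.434 CPM in C3, 3.94 in C1 and 6.24 in C5. Summed over the 18 genes the level was 1199.7 CPM in C3, against 1569 in C1, 2222 in C5, 1092 in the control, 1719 in C2 and 732 in C4, so C3 lay above the control and C4 and below C1, C2 and C5. Of 14 genes of the basement membrane, much of which haemocytes and fat body secrete, 5 were lower and none higher. The type IV collagen genes Col4a1 and vkg were at 88.96 CPM in C3, 209.9 in C1 and 289.7 in C5 and at 38.4 CPM in C3, 85.4 in C1 and 128 in C5, with 141 and 58.3 CPM in the control. Ndg (nidogen) was at 21.5 CPM in C3, 66.7 in C1 and 78.3 in C5, and Tig and Pxn, which are also on the haemocyte list, were the other called genes.

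Digestive enzymes of the midgut were lower in 20 of 42 measured members of 51 listed, and none was higher, with medians of -1.37 and -1.15. Jon66Cii, a trypsin-like protease gene, was at 2.83 CPM in C3, compared with 55.7 in C1 and 41.4 in C5, and with 8.10 in the control, 73.97 in C2 and 10.2 in C4. Jon25Bii was at 5.38 CPM in C3, against 70.9 in C1, 68.01 in C5, 35.6 in the control, 34.2 in C2 and 16.1 in C4. For each of these genes C1 and C5 stood above the control and C4, and C3 was lowest. The lipase gene mag was at 22.96 CPM in C3, compared with 106 in C1 and 66.02 in C5, and with 15.8 in the control, 109.5 in C2 and 40.3 in C4, and there C3 was above the control. Alp8, an alkaline phosphatase gene, was at 5.50 CPM in C3, against 74.2 in C1, 13.1 in C5, 2.16 in the control, 106 in C2 and 2.43 in C4. The lysozyme gene LysS was at 1.32 CPM in C3, 18.7 in C1 and 28.4 in C5 and LysB at 0.527 CPM in C3, 48.2 in C1 and 6.19 in C5. LysB, LysD and LysS lie within mwh, and LysB and LysD are near-identical copies, so the reads of these genes are uncertain. The same holds for the amylase copies Amy-p and Amy-d, at 45.3 CPM in C3, 204 in C1 and 122 in C5 and 11.3 CPM in C3, 40.6 in C1 and 53.9 in C5. Summed over the list, levels were 4407 CPM in C3, compared with 7559 in C1 and 7216 in C5, and with 2923 in the control, 5163 in C2 and 2594 in C4. C3 was thus below C1, C5 and C2 and above the control and C4. Of 13 mucin and peritrophin genes 5 were lower, with Muc68Ca at 0.408 CPM in C3, against 39.5 in C1, 17.8 in C5, 12.1 in the control, 198 in C2 and 20.7 in C4. Muc96D, which overlaps Fur1, was at 8.93 CPM in C3, compared with 227 in C1 and 224 in C5, and with 196 in the control, 459 in C2 and 163 in C4. For both C3 was lowest of the 6.

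Metabolic genes differed in part, and the shares over all measured genes were 2.29% higher and 6.71% lower. Of 8 serum and fat body storage protein genes 2 were lower, a pair of larval serum protein genes. Lsp1alpha was at 2943 CPM in C3, against 8114 in C1, 6294 in C5, 2009 in the control, 12016 in C2 and 1765 in C4. Lsp1beta was at 6479 CPM in C3, compared with 14551 in C1 and 15758 in C5, and with 9118 in the control, 28356 in C2 and 7750.0 in C4. C3 was above the control for Lsp1alpha and below it for Lsp1beta. Among 23 lipid metabolism genes 3 were lower and none higher: the lipase genes Lip3 and Lip4, and Glyp, which was counted in that list but encodes glycogen phosphorylase and was at 54.1 CPM in C3, against 193 in C1, 266 in C5, 236 in the control, 837 in C2 and 200.4 in C4. Of 21 genes of glycolysis, trehalose and gluconeogenesis 1 was called, Pepck1, higher at 532 CPM in C3, compared with 122 in C1 and 245 in C5, and with 81.5 in the control, 317 in C2 and 242 in C4. It shares its coordinates with CG45087, so the counts cannot be assigned to either. The list's medians were below 0, at -0.45 and -0.82. Of 5 measured transferrin and ferritin genes Tsf3 was higher at 99.7 CPM in C3, against 15.3 in C1, 12.4 in C5, 8.003 in the control, 12.8 in C2 and 17.4 in C4, and Tsf1, the iron carrier of the haemolymph, lower at 148 CPM in C3, compared with 404 in C1 and 336 in C5, and with 242 in the control, 559 in C2 and 177 in C4. In the Malpighian tubule list, 3 of 12 were lower, with Uro, the urate oxidase gene, at 1.91 CPM in C3, against 19.5 in C1, 9.02 in C5, 0.619 in the control, 112 in C2 and 1.97 in C4 and ry, the xanthine dehydrogenase gene, at 14.8 CPM in C3, 41.7 in C1 and 31.5 in C5.

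Cytochrome P450 genes, which oxidise hormones, lipids and foreign compounds, were lower in 23 of 57 measured members of 82 listed, and none was higher, with medians of -0.76 and -0.88. For this and the families below, the shares over all measured genes were 2.29% higher and 6.71% lower. A single called gene is thus no result about its family. Cyp6a18 was at 1.66 CPM in C3, compared with 27.7 in C1 and 29.4 in C5, and with 4.68 in the control, 26.9 in C2 and 10.6 in C4, and Cyp4g1, which makes cuticular hydrocarbons in oenocytes, at 9.69 CPM in C3, against 86.6 in C1, 55.9 in C5, 30.2 in the control, 16.4 in C2 and 18.3 in C4. C3 was lowest in both. Cyp9f2 was at 38.7 CPM in C3, 177 in C1 and 109 in C5, with 46.3 CPM in C4. Of 19 UDP-glycosyltransferases 1 was higher, Ugt37D1 at 44.4 CPM in C3, compared with 8.57 in C1 and 1.71 in C5, and with 1.99 in the control, 2.20 in C2 and 5.48 in C4, and 6 were lower, led by Ugt35A1 at 0.698 CPM in C3, 4.52 in C1 and 2.45 in C5. Of 29 glutathione S-transferases GstT4 was higher at 161 CPM in C3, against 65.9 in C1, 21.98 in C5, 37.6 in the control, 64.5 in C2 and 23.1 in C4, and 4 GstE genes were lower, with GstE3 at 83.7 CPM in C3, 304 in C1 and 185 in C5. Metallothionein genes, whose proteins bind metals, were lower in 2 of 6. MtnE was at 8.62 CPM in C3, compared with 49.1 in C1 and 35.6 in C5, and with 6.33 in the control, 11.7 in C2 and 14.996 in C4, and MtnD at 35.3 CPM in C3, 75.1 in C1 and 70.8 in C5. For MtnE the control and C2 were near the level of C3.

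**Figure D4:**
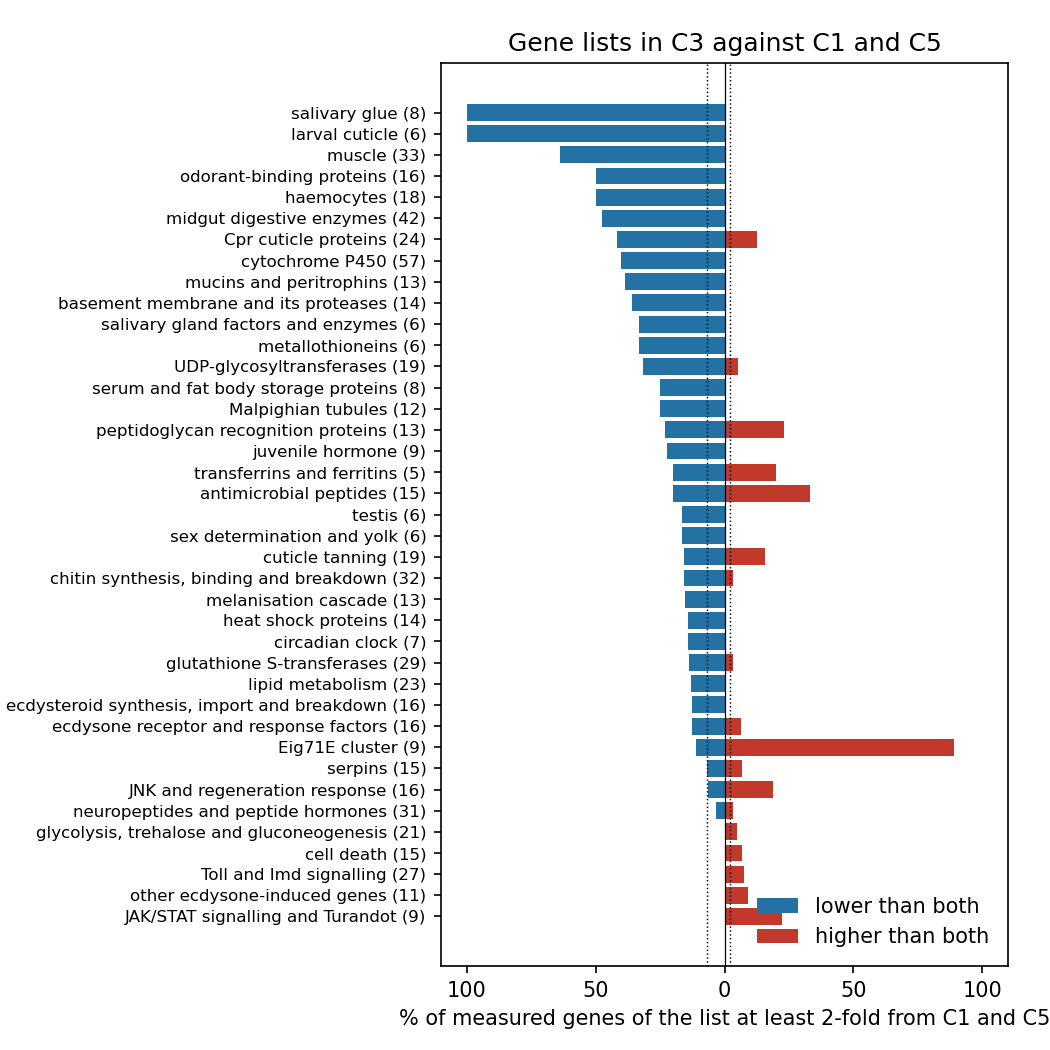
Percent of each list's measured genes (number in brackets) that were at least 2-fold lower (blue, to the left) or higher (red, to the right) in C3 than in both C1 and C5, for lists with at least 5 measured genes and at least 1 called; dotted lines mark 6.71% lower and 2.29% higher over all measured genes. Glue and larval cuticle genes reach 100% lower, and the Eig71E cluster has 8 of 9 genes higher. Most of these 8 were measured through their C3 level alone and could only be called higher.

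Immune genes went in both directions. Antimicrobial peptide genes are induced through the Toll and Imd pathways, and of 15 measured 5 were higher and 3 lower. The shares over all measured genes were 2.29% higher and 6.71% lower. Among the 5, CecB and Def were below 1 CPM in both C1 and C5. Both were measured through their C3 level alone and could only be called higher. CecB was at 29.1 CPM in C3, against 0.169 in C1, 0.213 in C5, 0.662 in the control, 0.150 in C2 and 24.1 in C4. Beside it on 3R, CecC was at 43.4 CPM in C3, compared with 2.21 in C1 and 0.453 in C5, and with 1.56 in the control, 0.718 in C2 and 67.9 in C4. A further cecropin gene, CecA1, was at 13.5 CPM in C3, against 0.844 in C1, 2.37 in C5, 1.05 in the control, 1.11 in C2 and 20.3 in C4. These 3 measured cecropin genes were high in C3 and C4 and low elsewhere. CecA2 was not measured, with 7 counts in C3, 0 in C1 and 2 in C5. Def was at 5.90 CPM in C3, compared with 0.337 in C1 and 0.227 in C5, and with 0.130 in the control, 0.224 in C2 and 7.40 in C4, the same 2 libraries. Drsl5, a drosomycin-like gene, was at 872 CPM in C3, against 418 in C1, 230.1 in C5, 1227 in the control, 0.748 in C2 and 798 in C4, where the control was highest. The lower genes were an attacin and both diptericin genes. AttA was at 1.74 CPM in C3, compared with 6.18 in C1 and 14.2 in C5, and with 9.49 in the control, 10.7 in C2 and 182 in C4. DptA was at 1.97 CPM in C3, against 4.76 in C1, 17.8 in C5, 20.2 in the control, 3.95 in C2 and 86.1 in C4, and DptB at 0.303 CPM in C3, 2.52 in C1 and 0.613 in C5. For AttA and DptA C4 was highest, so C3 and C4 stood at opposite ends for these and together for the cecropins.

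Peptidoglycan recognition proteins sense or digest bacterial cell wall, and of 13 measured 3 were higher and 3 lower. For this list and those below, the shares over all measured genes were 2.29% higher and 6.71% lower. PGRP-SB2 was at 2354 CPM in C3, compared with 241 in C1 and 7.08 in C5, and with 70.99 in the control, 0.135 in C2 and 967 in C4, highest in C3. The Imd pathway receptor gene PGRP-LC was at 151 CPM in C3, 72.6 in C1 and 44.7 in C5, and PGRP-LF, which encodes an inhibitor of the pathway, at 37.7 CPM in C3, against 4.83 in C1, 3.55 in C5, 2.57 in the control, 3.83 in C2 and 7.9999 in C4. The secreted amidase genes PGRP-SC2 and PGRP-SC1a were lower, at 52.6 CPM in C3, compared with 162 in C1 and 140.4 in C5, and with 62.04 in the control, 123 in C2 and 71.6 in C4 and at 0.619 CPM in C3, 6.21 in C1 and 2.45 in C5; PGRP-SC1a and PGRP-SC1b are near-identical, so their reads are uncertain. In the Toll and Imd pathways 2 of 27 listed genes were higher, the NF-kappaB gene Rel at 423 CPM in C3, against 193 in C1, 208 in C5, 134 in the control, 201 in C2 and 189 in C4 and pirk, a negative regulator of Imd, at 144 CPM in C3, compared with 54.2 in C1 and 47.8 in C5, and with 59.7 in the control, 34.3 in C2 and 25.3 in C4. None was lower. Of 9 JAK/STAT genes the ligand gene upd3 and the feedback inhibitor gene Socs36E were higher, at 2.34 CPM in C3, 0.771 in C1 and 0.813 in C5 and at 89.8 CPM in C3, 40.5 in C1 and 29.7 in C5. With C1 and C5 below 1 CPM, upd3 was measured through its C3 level and could only be called higher.

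The stress and signalling lists held called genes in both directions. Over all measured genes 2.29% were higher and 6.71% lower, so a single called gene in a list is no result about the list. Of 16 genes of the JNK and regeneration response 3 were higher and 1 lower. Among the 3 was upd3, which passed the filter through C3 alone. Gadd45, a stress-response gene, was at 76.7 CPM in C3, against 15.1 in C1, 22.7 in C5, 15.03 in the control, 31.4 in C2 and 40.5 in C4. The transcription factor gene Ets21C was at 8.85 CPM in C3, compared with 4.33 in C1 and 2.65 in C5, and with 3.71 in the control, 2.36 in C2 and 13.5 in C4; upd3 was the third, and the kinase gene Takl1 was lower at 4.27 CPM in C3, against 23.7 in C1, 22.5 in C5, 23.03 in the control, 17.1 in C2 and 11.2 in C4. Of 15 cell death genes the inducer rpr was higher, at 30.8 CPM in C3, compared with 10.9 in C1 and 6.57 in C5, and with 11.9 in the control, 5.09 in C2 and 31.3 in C4, with C4 at the level of C3. Among 14 heat shock genes the Hsp70 copies Hsp70Bbb and Hsp70Bc were lower, at 2.23 CPM in C3, 10.9 in C1 and 14.3 in C5 and at 2.03 CPM in C3, 10.01 in C1 and 24.4 in C5. The control had 1.73 and 3.65 CPM, and reads of the Hsp70 copies cannot be separated. The most abundant copy, Hsp70Bb, was at 428 CPM in C3, 426 in C1 and 111 in C5. Hsp70Ba was at 13.1 CPM in C3, 18.5 in C1 and 12.3 in C5. Neither was 2-fold from both, so the lower calls do not extend to Hsp70 RNA as a whole. Of 15 serpins, Spn100A was higher, at 522 CPM in C3, against 103 in C1, 50.2 in C5, 52.4 in the control, 14.5 in C2 and 626 in C4. Spn43Ab was lower, at 22.3 CPM in C3, 66.6 in C1 and 81.7 in C5. Of 31 neuropeptide and hormone genes the fat body signal gene Gbp1 was higher at 118 CPM in C3, 43.5 in C1 and 29.9 in C5 and Nplp4 lower at 18.3 CPM in C3, 42.2 in C1 and 69.1 in C5. Juvenile hormone genes were lower in 2 of 9, the esterase genes Jhe at 2.19 CPM in C3, 5.25 in C1 and 5.57 in C5 and Jhedup at 0.948 CPM in C3, 5.87 in C1 and 3.49 in C5. Odorant-binding protein genes were lower in 8 of 16 measured of 49 listed, with Obp56a at 1.13 CPM in C3, compared with 20.6 in C1 and 12.7 in C5, and with 2.45 in the control, 51.6 in C2 and 10.4 in C4.

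Of 54 lists with at least 5 measured genes, 15 held no gene that was 2-fold from both comparators. They were the cytosolic ribosomal proteins (87 genes measured, with 3 named only as like one), mitochondrial ribosomal proteins (73), oxidative phosphorylation (59), cell cycle and DNA replication (39), secretory pathway (32), proteasome (31), imaginal disc and Hox factors (24), vacuolar ATPase (21), autophagy (19), neurons and glia (18), ribosome biogenesis (16), insulin response (13), trachea (7), dosage compensation (6) and germline genes of both sexes (6). Their median log2 ratios lay between -0.33 (vacuolar ATPase, to C1, and neurons and glia, to C1) and 0.22 (imaginal disc and Hox factors, to C5). A further 21 lists held lower genes and no higher one, 5 held higher genes and no lower one, and 13 held both. The testis list, of which 6 of 29 genes were measured, had 1 lower gene, bol at 3.32 CPM in C3, against 8.24 in C1, 7.81 in C5, 106 in the control, 13.3 in C2 and 213 in C4. The eye colour gene w was at 82.3 CPM in C3, 65.7 in C1 and 73.2 in C5.

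The control, C2 and C4 took no part in choosing the genes. Of the 227 higher genes, 114 (50.2%) were at least 2-fold higher in C3 than in all 5 other libraries, and of the 666 lower genes 331 (49.7%) were at least 2-fold below all 5. Any measured gene that far from all 5 is a member by the rule, so these counts describe the choice. C4 was within 2-fold of C3 for 71 (31.3%) of the higher genes, C2 for 28 (12.3%) and the control for 19 (8.37%). For the lower genes the control was within 2-fold of C3 for 229 (34.4%), C4 for 222 (33.3%) and C2 for 78 (11.7%). Over all measured genes the shares were 83.99% for the control, 80.04% for C2 and 78.96% for C4. These shares use the C3 values that chose the genes, and nothing is read from them. The ranks that follow include C1 and C5, whose values also chose the genes, so they depend on the choice as well. Setting C3 aside, C4 was the highest of the other 5 libraries for 121 of the higher genes (53.3%), against 23.5% of all measured genes, and C2 was the lowest for 103 (45.4%), against 19.8%. Among the lower genes C2 was the highest for 413 (62.0%), against 28.8% of all measured genes, and C4 the lowest for 272 (40.8%), against 36.4%. The control was the lowest for 239 of them (35.9%), against 18.5%.

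The ratios of C4 to the control and of C2 to the control use none of the 3 libraries compared, although both ratios share the control. Of the 227 higher genes 89 (39.2%) were at least 2-fold higher in C4 than in the control and 17 (7.49%) lower, against 3.78% and 3.64% of all measured genes. Their median log2 ratio of C4 to the control was 0.70, with quartiles of -0.05 and 1.71, against -0.01 for all measured genes. In C2, 24 of the 223 higher genes with a ratio (10.8%) were at least 2-fold above the control and 84 (37.7%) below it, against 10.1% and 7.08% of all measured genes, with a median of -0.53. Some higher genes passed the filter through C3 alone, among them Eig71Eh and Eig71Ei with 0 counts in the control. Genes at or near the floor of 3 counts in the control could hardly be called lower than it. All measured genes are thus not a like background for such genes. The genes lower in C3 differed from the higher genes in these ratios. In C4, 76 (11.4%) of the 666 were above the control and 82 (12.3%) below, with a median of -0.02. In C2, 377 (56.6%) were at least 2-fold above the control and 41 (6.16%) below, with a median of 1.21, against 0.06 for all measured genes. C4 and the control are the 2 libraries with testis RNA, and the part of this in their ratio to each other was not tested. C2 had 0 counts over the 45 Y-linked genes, against 1895 in the control. The gene betaTub85D was at 0.449 CPM in C2 and 244 in the control. The ratio of C2 to the control thus sets a library without testis RNA against a library with it, and the part of this was not tested.

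**Figure D5:**
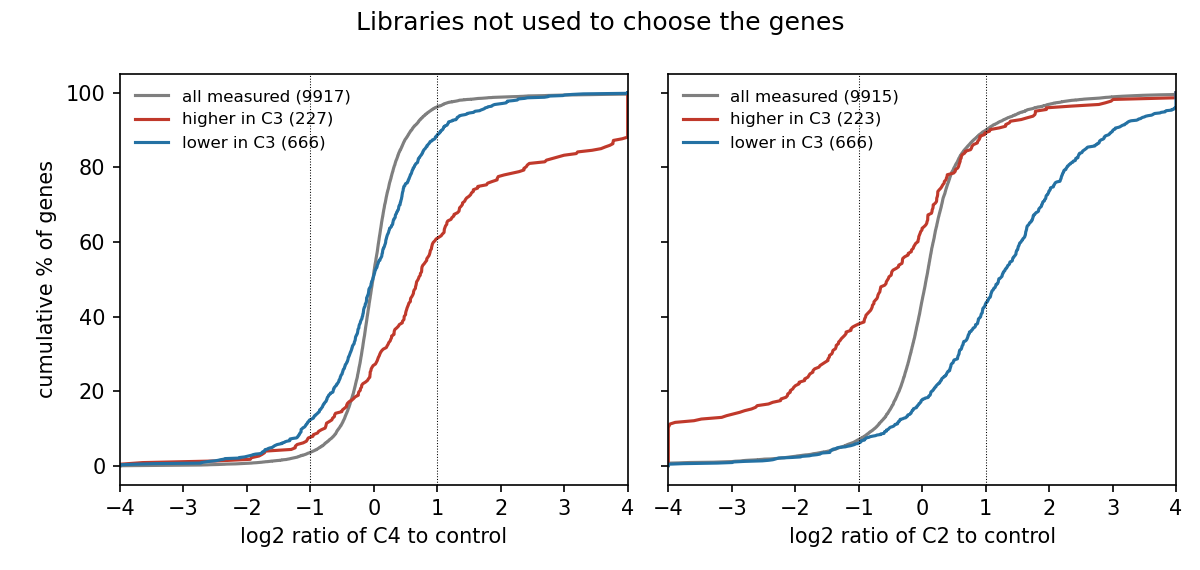
Cumulative percent of genes (vertical) by log2 ratio of C4 to the control (left) and of C2 to the control (right), for all measured genes and for those higher or lower in C3 than in C1 and C5; values beyond 4 in either direction are drawn at the edge and dotted lines mark 2-fold. The higher genes lie to the right in C4 (median 0.70), and the lower genes lie to the right in C2 (median 1.21).

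By chromosome arm, higher genes made up between 1.2% (chromosome 4, 1 of 83 measured genes) and 3.21% (3L) of the measured genes, and lower genes between 1.2% (chromosome 4) and 7.47% (3R). On the X they were 1.51% and 5.09% of 1591 genes. Runs of 3 or more neighbouring measured genes with the same call numbered 5 among the higher genes, with 19 genes, and 37 among the lower genes, with 127 genes. The longest higher runs had 5 genes, one from Eig71Ef to CG43082 (3L, 15656655 to 15662279) and one at the gene of the transcription factor SoxN (2L, 8825645 to 8892180) with asRNA:CR45260, CG32983, CG9483 and CG42713. SoxN was at 465 CPM in C3, compared with 170.4 in C1 and 34.2 in C5, and with 122 in the control, 30.02 in C2 and 34.8 in C4. CG9483 was at 5.10 CPM in C3, against 0.277 in C1, 0 in C5, 6.49 in the control, 0.0150 in C2 and 13.2 in C4. It was measured through its C3 level alone and could only be called higher. The 3 measured cecropin genes and CG13026, CG13031 and PGRP-SB2 (3L, 16724678 to 16727288) were others. The longest lower runs had 6 genes, CG15021 to CG13722 (3L, 4436721 to 4490963) and CG42822 to CG14332 (3R, 17413901 to 17422202). Lower runs also held Lcp1, Lcp2, Lcp3 and Lcp4 with Cyp4ad1 (2R, 8430115 to 8442806), Sgs8, Sgs7 and Sgs3 (3L, 11508967 to 11513402), Obp56a, Obp56b, Obp56c and Obp56d (2R, 19697723 to 19703915) and Adh with Adhr and 2 further genes (2L, 14615552 to 14714526). The alcohol dehydrogenase gene Adh was at 118 CPM in C3, compared with 400.2 in C1 and 412 in C5, and with 71.97 in the control, 979 in C2 and 70.7 in C4.

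Of the members, 200 of the 227 higher genes (88.1%) and 652 of the 666 lower genes (97.9%) were protein coding, against 97.4% of all measured genes. Long noncoding or antisense RNAs numbered 25 (11.0%) and 14 (2.1%), against 2.39%. Symbols that are only a CG number belonged to 107 of the higher (47.1%) and 323 of the lower genes (48.5%), against 33.98% of all measured genes. At the 2-fold limit, CG4945 was just inside among the higher genes, at 46.1 CPM in C3, 23.005 in C1 and 7.76 in C5, as was HDAC11 at 1.76 CPM in C3, 0.880 in C1 and 0.773 in C5. EMC2A was just outside, at 24.7 CPM in C3, 8.93 in C1 and 12.4 in C5, and so was CG12016 at 160.1 CPM in C3, 80.8 in C1 and 57.4 in C5. Among the lower genes Men, the malic enzyme gene, was just inside at 26.1 CPM in C3, 52.2 in C1 and 54.97 in C5, and CG31760 at 1.83 CPM in C3, 3.66 in C1 and 4.24 in C5. CG7916 was just outside at 43.3 CPM in C3, 86.6 in C1 and 91.2 in C5, and CG18746 at 0.935 CPM in C3, 2.16 in C1 and 1.87 in C5. A further 7 measured genes (CG42792, CG34215, CG13215, CG1208, Jig, CG13847 and CG11891) lay between C1 and C5, at least 2-fold from both in opposite directions, and were not members.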

How the data were processed

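Total RNA was purified from TRIzol lysates, depleted of ribosomal RNA, made into stranded TruSeq libraries and read as paired ends, per the labels' protocols. Partek, TopHat, bcl2fastq and dm6 appear in the submitters' processing notes, without versions or roles, and how strand was handled in counting is unknown. The authors deposited expected counts (estimated counts per RefSeq transcript) and RPKM values for each library; the RPKM values of the authors entered no comparison. Of 34966 transcripts 33027 matched a gene of the Release 6 plus ISO1 MT annotation, the assembly called dm6. The 1939 unmatched ones held 0.0796% to 0.136% of a library and entered only the alternative on transcripts.

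Counts were summed per gene and rounded. Library totals were scaled with TMM factors over all 6 libraries (edgeR 4.0.16, R 4.3.3), 0.955 in C1, 0.998 in C3 and 0.904 in C5. A gene was a member when C3 was at least 2-fold from C1 and from C5 in the same direction. Counts below a floor of 3 per library were raised to it for the ratios. A pair of libraries with both counts at or below 3 got no ratio. A gene was measured when the CPM of C1, C3 and C5 averaged at least 1. A gene far below 1 CPM in both C1 and C5 passed this filter through C3 alone and could only be called higher. C1 and C5 were never averaged as replicates. Ratios have exact 95% Clopper-Pearson intervals (scipy 1.17.1) for counting error only, since reads without molecular identifiers are not independent molecules. The calling was checked on simulated counts.

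Members and the 58 gene lists were chosen with earlier results of these data known, and the cyclophilin genes Cyp1 and Cyp40 were later taken off the cytochrome P450 list. Genes named were the 12 higher and 12 lower with the largest smaller ratio and an average of at least 5 CPM, up to 6 called genes per list and direction, genes at the limit, the ecdysone factors, w, roX1 and betaTub85D. Genes of runs, genes with C1 far above C5, uncalled genes other than the ecdysone factors, Lcp2 and others beyond 6 per list, and the genes with 0 counts in C3 were named after their values were seen. Alternatives were TMM over C1, C3 and C5, DESeq2 1.42.0 size factors, plain CPM, other filters, folds and comparators, transcripts, and genes without an overlapping neighbour.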

Additional observations from a re-analysis of the deposited data

How the results depend on the processing

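No paired analysis was possible because each genotype had 1 library, and for the same reason no replicate could be left out. Against 227 higher and 666 lower genes, TMM over C1, C3 and C5 alone gave 227 and 666, DESeq2 size factors 236 and 647, and plain CPM 246 and 598, with the median of all genes at 0.08 to C1 and 0.14 to C5; a mean of at least 5 CPM gave 153 and 457, intervals wholly beyond 2-fold 194 and 551, and C1 alone 267 and 803. No filter gave 492 higher and 967 lower genes, C5 alone 534 and 882, and a 3-fold limit 106 and 361. With transcripts as deposited the counts were 1065 and 2128. Without genes that overlap another gene with counts, an alternative chosen after seeing the data, they were 115 and 413, or 2.27% and 8.16% of 5060 genes. By construction, the 3-fold limit is stricter over the same 9920 genes, and other features entered with no filter, with transcripts and without overlapping genes; for C5 alone the cause was not tested. Lists with at least 5 measured genes and 50% or more lower numbered 5, but 3 with no filter and 8 with C5 alone. With C5 alone the ecdysone factor list held 2 lower genes and more higher than lower ones, and the glycolysis list 2 higher genes and more lower than higher ones; the cause was not tested. Over the named genes 1185 of 1197 values kept direction and side of the limit, 9 lost the call, 3 gained it and none changed direction. With 1 library per genotype, depth limits only genes of few counts.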
